A study of Mus musculus with 9 samples.

Results

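The 26S proteasome is the protease that degrades ubiquitin-tagged proteins, and its subunit genes were followed here in cultured mouse astrocytes after a pulse of hydrogen peroxide. The genes were taken by symbol: every symbol of the deposited expression table that begins with Psma, Psmb, Psmc, Psmd, Psme, Psmf or Psmg followed directly by a digit, without the immunoproteasome genes Psmb8, Psmb9 and Psmb10. This gave 47 of the 25239 symbols in the table. One of them, Psmc3ip, shares the letters but encodes a meiotic recombination factor and no proteasome component. It is counted among the 47 and named apart.

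The cells were primary astrocytes from the cerebral cortex of mouse pups at postnatal day 4, grown in serum-containing medium, and neither strain nor genotype is given. The control group was not treated, and the labels do not say when it was harvested. The other groups received 200 µM H2O2 for 3 h, were washed, and were harvested 24 h later (day 1) or 72 h later (day 3). Each group has 3 libraries of polyadenylated RNA, numbered 1 to 3, and nothing in the labels says whether these are separate cultures. The p-values therefore measure spread among libraries that may be technical replicates.

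Values are FPKM, read numbers scaled by gene length and by library total, so levels can be compared between genes. The libraries held 23032594 to 38414668 reads, of which the ribosomal precursor Rn45s took 7.67% to 11.9%. Of the 25239 symbols, 12611 averaged 1 FPKM or more and were tested. The test was limma on log2(FPKM + 0.1) after rescaling of the libraries. It was two-sided, with p-values adjusted by Benjamini-Hochberg over the 12611 genes, and an adjusted p below 0.05 counts as a call. Fold changes are on that rescaled log2 scale and can differ slightly from the ratio of the printed means. Whether groups overlap or stand apart was judged on the printed FPKM, before rescaling, so it can differ from the rescaled values.

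As background, the 26S proteasome joins a core to a regulatory cap. A barrel-shaped 20S core of stacked alpha and beta rings holds the protease sites inside, and a 19S cap binds the ubiquitin chain, removes it, unfolds the protein with a ring of ATPases and threads it into the core. Other caps (PA28 and PA200) open the core without the 19S particle, PI31 was first described as an inhibitor, and dedicated chaperones assemble the rings and the base of the cap. In mammals the subunit genes are known to be induced together by the transcription factor NRF1 (Nfe2l1) when proteasome activity falls short, through antioxidant response elements in their promoters. The 20S core is also known for degrading oxidised proteins in cells under oxidant stress.

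The promoters of 4 subunit genes are shown. They were picked from the 6 windows that hold the core letters of the antioxidant response element, TGACNNNGC, on one strand or the other, so that all 4 hold them follows from the choice. Psme4 and Psmc6 had the largest rises on day 1, and Psmb5 and Psmb6, which encode catalytic subunits, were not called. Sequences are RefSeq, build GRCm38.p6, read 5′ to 3′ on the strand of the gene, and capitals mark the match. For Psmb6 the upstream sequence holds no match, and the site, which lies before the start of another transcript, is given apart.
Psme4, chr11:30771525-30771776, plus strand: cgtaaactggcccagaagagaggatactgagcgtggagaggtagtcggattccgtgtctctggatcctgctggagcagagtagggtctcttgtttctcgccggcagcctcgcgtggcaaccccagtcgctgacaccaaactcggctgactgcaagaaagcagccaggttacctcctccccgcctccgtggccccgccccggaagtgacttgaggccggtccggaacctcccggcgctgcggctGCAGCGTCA
Psmc6, chr14:45329574-45329822, plus strand: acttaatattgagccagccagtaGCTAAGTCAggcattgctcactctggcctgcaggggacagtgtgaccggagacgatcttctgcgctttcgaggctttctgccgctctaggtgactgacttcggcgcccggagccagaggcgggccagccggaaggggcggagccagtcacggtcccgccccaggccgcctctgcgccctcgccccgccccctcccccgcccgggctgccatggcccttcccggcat
Psmb5, chr14:54617996-54618245, minus strand: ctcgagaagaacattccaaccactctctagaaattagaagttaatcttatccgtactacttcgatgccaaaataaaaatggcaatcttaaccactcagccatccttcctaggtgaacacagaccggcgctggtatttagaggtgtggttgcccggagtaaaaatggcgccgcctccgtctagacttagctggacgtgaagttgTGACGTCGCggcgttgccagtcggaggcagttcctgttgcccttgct
Psmb6, chr11:70525107-70525323, plus strand: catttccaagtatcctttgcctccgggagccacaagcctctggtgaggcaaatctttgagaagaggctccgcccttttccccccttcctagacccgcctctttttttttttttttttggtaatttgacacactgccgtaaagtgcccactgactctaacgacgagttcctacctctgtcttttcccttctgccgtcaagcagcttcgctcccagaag
Psmb6 site, chr11:70525338-70525366, plus strand: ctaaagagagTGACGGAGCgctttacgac
In Psme4 and Psmc6 the match reads on the opposite strand, from −7 to 1 and from −227 to −219 relative to the transcript start. In Psmb5 it reads on the same strand from −47 to −39.

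Promoter windows of 300 bases (250 before to 50 after a transcript start) were at hand for 39 of the 47 genes, 42 windows in all. The letters TGACNNNGC, searched on both strands, occurred in 6 of the 42 windows (14.3%), those of Psmd9, Psme4, Psmb6, Psmd12, Psmc6 and Psmb5, against 14.1% of the 12755 windows of tested genes and 12.4% of all 32851 windows. The NF-Y box CCAAT occurred in 14 of 42 (33.3%) against 37.6% of the windows of tested genes. The nuclear respiratory factor 1 motif, a palindromic run that can match both strands at once, occurred in 7 of 42 (16.7%) against 9.92% of those of tested genes and 4.6% of all. A match is a run of letters and not a bound site. The genes do not sit together in the genome: the 47 lie on 16 chromosomes, 10 of them on chromosome 11.

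In control cultures most of these genes were among the more abundant transcripts. The 7 tested alpha-ring genes ran from 33.4 FPKM for Psma3 to 81.9 FPKM for Psma2, and the 7 tested beta-ring genes from 63.0 FPKM for Psmb5 to 105 FPKM for Psmb4. The 6 ATPase genes of the cap ran from 37.0 FPKM for Psmc6 to 76.3 FPKM for Psmc3, and its 11 non-ATPase genes from 36.2 FPKM for Psmd12 to 94.0 FPKM for Psmd2. All 31 core and cap genes thus lay within a 3.13-fold range of mean level. The activators ran from 21.0 FPKM (Psme4) to 41.8 FPKM (Psme1), Psmf1 stood at 12.3 FPKM, and the assembly chaperones ran from 8.72 FPKM (Psmg1) to 29.0 FPKM (Psmd5).

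**Figure D1:**
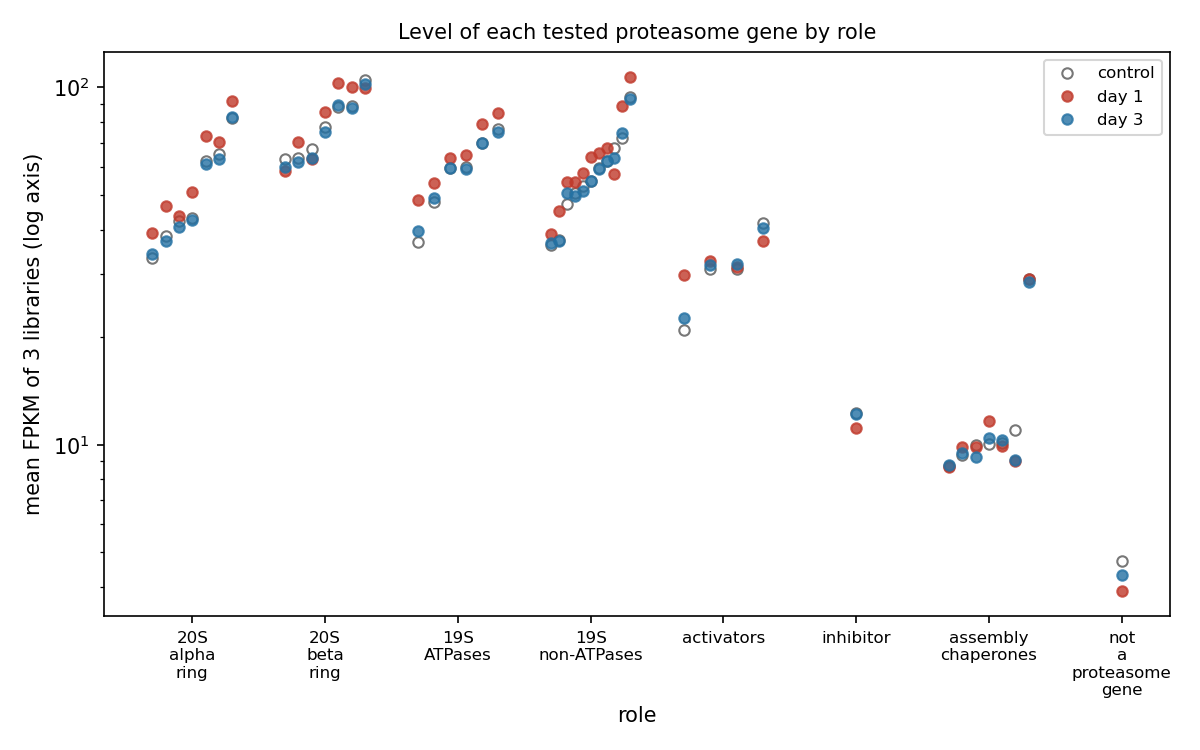
Mean FPKM of 3 libraries for each tested proteasome gene (log axis), grouped by role on the horizontal axis, with one point per gene in control, day 1 and day 3 cultures. The 31 core and cap genes lie between 33.4 and 107 FPKM in the 3 groups, Psmf1 and all chaperones except Psmd5 between 8.65 and 12.3 FPKM, and Psmc3ip lowest.

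Of the 47 genes, 44 passed the expression filter, with 78 to 11269 reads per library. The other 3 are tissue-restricted forms or a near copy. Psma8, the testis alpha subunit, had 0.0461 to 0.175 FPKM (3 to 10 reads). Psmb11, the thymus catalytic subunit, had 0 to 0.0398 FPKM (0 to 4 reads). Psme2b, which shares 95% of its transcript with Psme2, had 0.593 to 1.12 FPKM (17 to 34 reads). A further limit is shared sequence: 14 of the 44 tested genes share at least 100 bases at 97% identity or more with another annotated gene, often a pseudogene. The assignment of such reads by the authors was not given in the sources used here.

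One day after H2O2 most proteasome genes were slightly higher than in control. Of the 44 tested genes, 29 rose and 4 fell (Psmd3, Psme1, Psmf1 and Psmg3), while 11 were not called. Over all tested genes 62.1% were called in this comparison, 32.4% as higher and 29.7% as lower, so calls were common everywhere, and the 29 of 44 (65.9%) is to be read against the 32.4%. In 27 of the 44 every day 1 library was above every control library, and in 4 below, where 28.8% and 37.3% of all tested genes stood apart in these ways. Without Psmc3ip, 29 of 43 rose and 4 fell, and in 27 and 3 the groups stood apart. The median change of the 44 was 0.16 on the log2 scale beside 0.01 over all genes tested. The 32.4% and the 0.01 cover genes of every level from 1 FPKM up, while most proteasome genes are among the more abundant. In a fit limited to genes averaging 5 FPKM or more, 3390 of 8812 were called higher and 2623 lower, with a median of 0.03. The rises of the proteasome genes were small: from 1.08-fold (Psme3) to 1.47-fold (Psme4), and 10 reached 1.2-fold. The share of all tested genes that reached 1.2-fold is not given here, so the 10 cannot be compared with it. Library by library, the median of the 44 genes relative to the control mean was −0.03, 0.01 and 0.02 (log2) in control, 0.16, 0.16 and 0.18 on day 1, and 0.01, 0.00 and 0.01 on day 3. The day 1 libraries were alike and stood above the other 6. With quantile normalization in place of the rescaling, 22 were called higher and 7 lower, and the median was 0.09. Of all 12611 tested genes 3918 were called higher and 3816 lower under that normalization, with a median of 0.01. The 7 genes that lost the call there are Psma6, Psmb3, Psmc4, Psmc5, Psmd1, Psmd4 and Psme3.

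In bulk RNA, more cells of one type and more RNA per cell cannot be told apart, and marker genes of several cell types moved on day 1 as well. The 12 microglial markers summed to 266 to 290 FPKM in control, 103 to 112 on day 1 and 216 to 280 on day 3, and 10 of 11 tested fell on day 1. The 12 oligodendrocyte-lineage markers summed to 522 to 551, 357 to 382 and 429 to 462 FPKM, and 9 of 10 tested fell. The 10 astrocyte markers summed to 2773 to 2842, 2049 to 2313 and 2546 to 2581 FPKM, with 3 of 9 tested higher and 6 lower on day 1. Fibroblast markers (6) summed to 915 to 983, 2025 to 2160 and 1077 to 1327 FPKM, with 4 higher and 2 lower, and mural markers (6) to 1123 to 1221, 2081 to 2153 and 1045 to 1132 FPKM, with Kcnj8 and Abcc9 under 0.5 FPKM throughout. Of the 8 neuronal markers, Rbfox3, Snap25, Syt1, Slc17a7 and Gad1 stayed under 0.5 FPKM in every library. The 8 summed to 101 to 102, 109 to 112 and 109 to 110 FPKM, and the 3 that were tested were all called higher on day 1. Ependymal markers (5) summed to 126 to 140, 74.1 to 83.0 and 115 to 131 FPKM, and endothelial markers (4) to 11.3 to 11.9, 11.7 to 12.4 and 13.6 to 14.5 FPKM. Whether these shifts bear on the proteasome genes was not tested.

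**Figure D2:**
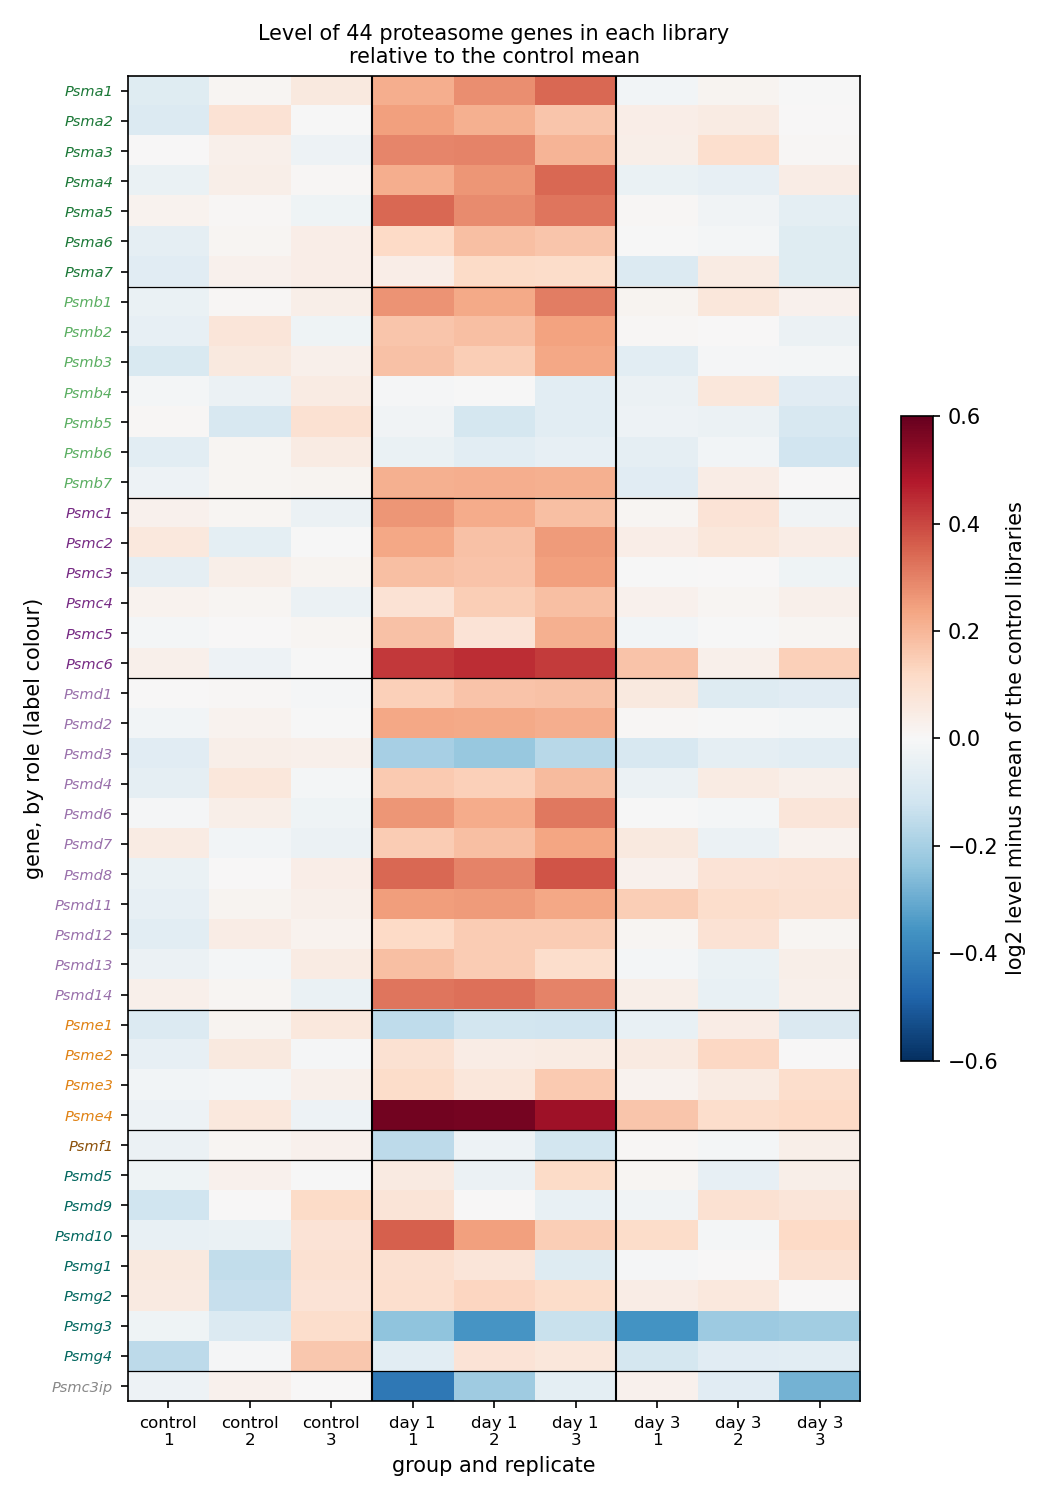
Level of each of the 44 tested proteasome genes (rows, label colour by role) in each of the 9 libraries (columns), as log2 level minus the mean of the 3 control libraries. The 3 day 1 columns are higher for most core and cap genes, with medians of 0.16, 0.16 and 0.18, and the 3 day 3 columns have medians of 0.01, 0.00 and 0.01.

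The alpha ring, which forms the gate of the core, had 6 of its 7 tested genes called higher on day 1, and Psma7 was not called (fold 1.06, 95% interval 0.997 to 1.13, adjusted p = 0.0875). Under quantile normalization Psma6 also lost the call (log2 change 0.05, adjusted p = 0.186), which leaves 5. Psma5 had 38.4, 38.8 and 37.9 FPKM in the control libraries, 47.4, 45.9 and 45.9 FPKM on day 1, and 38.3, 36.8 and 36.6 FPKM on day 3. Every day 1 library was above every other library. Its day 1 level was 1.25-fold that of control (95% interval 1.19 to 1.3, adjusted p = 3.79e-06), although 76.5% of its transcript is shared with the copies Gm12989 and Gm8394. Psma1 had 40.4, 43.9 and 45.3 FPKM in control, 48.9, 51.5 and 52.5 FPKM on day 1 and 42.4, 42.5 and 42.8 FPKM on day 3. Its day 1 values lay above all others too, 1.22-fold over control (1.14 to 1.29, adjusted p = 0.000117). Psma4 had 59.7, 64.4 and 63.0 FPKM in control, 70.6, 73.5 and 75.8 FPKM on day 1 and 60.3, 58.6 and 64.0 FPKM on day 3. The day 1 group again stood clear of control and day 3, at 1.21-fold over control (1.14 to 1.28, adjusted p = 0.000107).

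The beta ring, which carries the protease sites, split. Psmb1, Psmb2, Psmb3 and Psmb7 rose on day 1, and Psmb4, Psmb5 and Psmb6 were not called. Under quantile normalization Psmb3 lost the call (adjusted p = 0.0548), and the log2 change went from 0.27 to 0.15 for Psmb1 and from 0.22 to 0.10 for Psmb7, both still called. Psmb1, a non-catalytic member, had 84.3, 89.3 and 90.9 FPKM in control, 103, 101 and 104 FPKM on day 1, and 88.7, 89.9 and 89.1 FPKM on day 3. The day 1 libraries were the highest, 1.2-fold over control (95% interval 1.15 to 1.26, adjusted p = 2.11e-05). The catalytic genes differed from one another. Psmb7, the trypsin-like site, had 85.7, 90.4 and 90.5 FPKM in control, 100.5, 101 and 98.8 FPKM on day 1 and 84.3, 89.4 and 88.5 FPKM on day 3, without overlap between day 1 and either other group (1.16-fold over control, 1.11 to 1.22, adjusted p = 0.000111). It overlaps the annotated transcripts of its neighbour Nek6 over 35.1% of its length. Psmb5, the chymotrypsin-like site, had 62.3, 59.4 and 67.4 FPKM in control, 60.4, 57.4 and 57.8 FPKM on day 1 and 61.3, 59.9 and 58.6 FPKM on day 3. Its groups overlapped, and the day 1 fold was 0.957 (0.895 to 1.02, adjusted p = 0.225), with 88.4% of the transcript shared with the copy Gm3375. Psmb6, the caspase-like site, had 63.5, 68.4 and 70.0 FPKM in control, 63.6, 63.2 and 62.2 FPKM on day 1 and 64.4, 64.7 and 61.7 FPKM on day 3. One control library fell among the day 1 values, and the fold was 0.965 (0.916 to 1.02, adjusted p = 0.205). Under quantile normalization Psmb4, Psmb5 and Psmb6 were called lower on day 1, each by a log2 change of −0.15 (adjusted p = 0.00312, 0.00899 and 0.00158).

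Ratios within a library do not depend on the scaling between libraries. They restate the split from the same FPKM and add no separate evidence for it. The Psmb5 to Psmb7 ratio of FPKM was 0.727, 0.657 and 0.745 in control, 0.601, 0.566 and 0.585 on day 1, and 0.728, 0.671 and 0.662 on day 3. All day 1 ratios were the lowest, 17.7% below control on average. For Psmb6 to Psmb7 the ratio was 0.741, 0.756 and 0.774 in control, 0.634, 0.623 and 0.629 on day 1, and 0.764, 0.724 and 0.697 on day 3, again with no overlap between day 1 and the other groups. The exact two-sided permutation test of 3 libraries against 3 gave p = 0.1 for both on day 1 against control, the smallest it can give, and 0.136 after Benjamini-Hochberg adjustment over the 15 ratio comparisons. These comparisons cannot pass 0.05.

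The immunoproteasome genes replace the 3 catalytic subunits in immune and cytokine-stimulated cells. All 3 immunoproteasome genes were called lower on day 1, as were 29.7% of all tested genes. Of their constitutive counterparts only Psmb7 was called higher, and Psmb5 and Psmb6 were not called. Psmb8 went from 3.83 ± 0.24 FPKM (SD, n = 3) to 2.24 ± 0.463 FPKM (log2 change −0.73), and returned to 3.64 ± 0.606 FPKM on day 3. Psmb9 stood at 1.47, 1.10 and 1.81 FPKM and Psmb10 at 10.2, 8.28 and 9.11 FPKM in the 3 groups, with day 1 log2 changes of −0.36 and −0.26. The adjusted p-values on day 1 were 0.000891 for Psmb8, 0.0422 for Psmb9 and 0.00339 for Psmb10. Psmb9 rests on 17 to 53 reads per library, and its control and day 1 groups overlapped. The Psmb8 to Psmb5 ratio was 0.0609 ± 0.00449 in control, 0.0383 ± 0.00823 on day 1 and 0.0607 ± 0.00921 on day 3 (SD, n = 3), with no overlap between control and day 1 (exact permutation p = 0.1, adjusted 0.136). Psmb10 to Psmb7 went from 0.115 ± 0.00213 to 0.0826 ± 0.0061 on day 1, also without overlap. On day 3 it was 0.104 ± 0.00225, still below all controls (exact permutation p = 0.1, adjusted 0.136). Psmb9 to Psmb6 went from 0.0218 ± 0.00156 to 0.0175 ± 0.00358 on day 1 with overlapping groups (exact permutation p = 0.2). On day 3 it was 0.0285 ± 0.00209, 30.4% above control and without overlap (exact permutation p = 0.1, adjusted 0.136). Psmb9 itself was not called on day 3 against control (adjusted p = 0.184). Microglia express these genes, and their markers fell on the same day, as given above. The part of these cells in the fall was not tested.

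**Figure D3:**
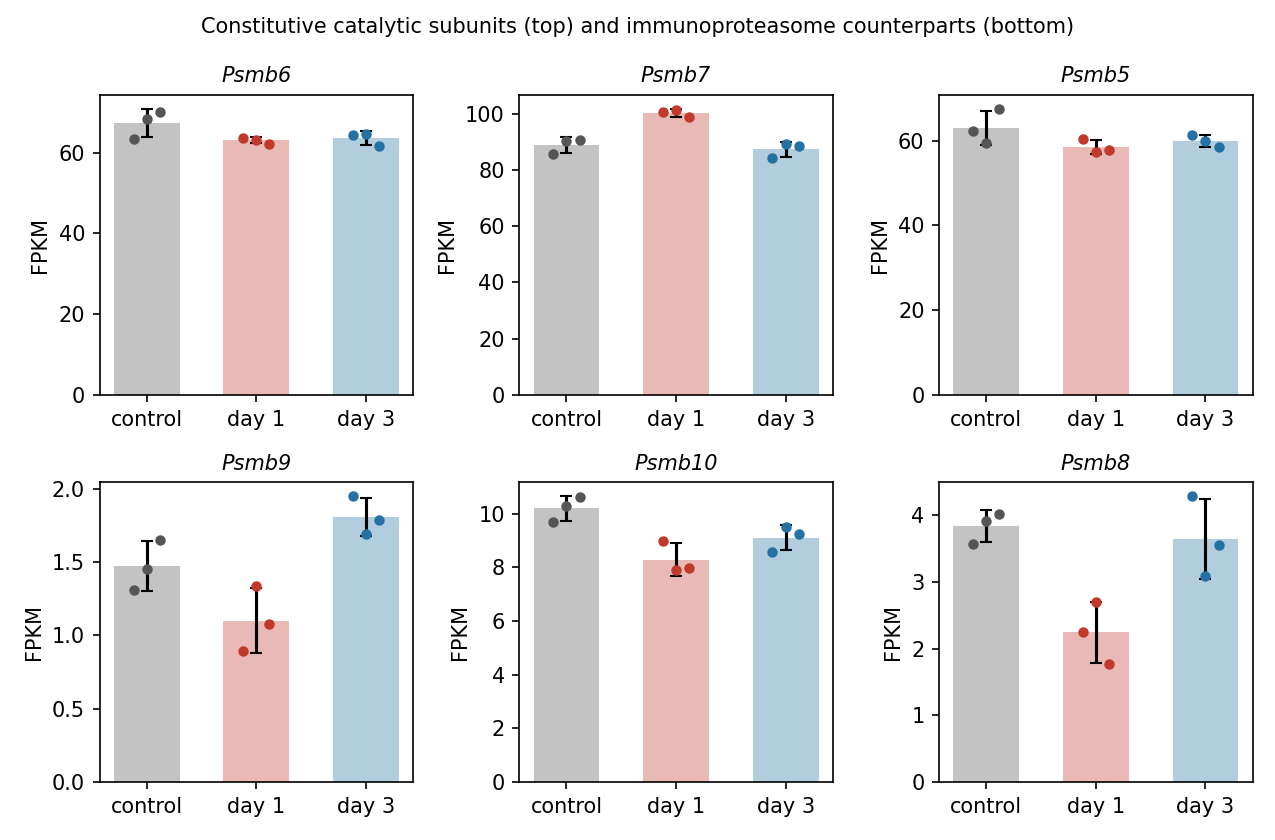
FPKM of the constitutive catalytic genes Psmb5, Psmb6 and Psmb7 (top) and of their immunoproteasome counterparts (bottom) in each library (points), with the group mean (bar) and SD (error bar) of 3 libraries. Psmb7 is higher on day 1 (98.8 to 101 FPKM) than in any other library, the Psmb5 and Psmb6 groups overlap, and Psmb8 is lowest on day 1.

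All 6 ATPases of the 19S cap were called higher on day 1, and 4 under quantile normalization, where Psmc4 (log2 change 0.05, adjusted p = 0.209) and Psmc5 (0.06, adjusted p = 0.104) lost the call. Psmc6, the ATPase with the lowest level in control, rose most, with 37.3, 36.6 and 37.2 FPKM in control, 48.4, 49.4 and 47.4 FPKM on day 1, and 41.4, 36.8 and 40.6 FPKM on day 3. The day 1 libraries were well clear of the rest, 1.35-fold over control (95% interval 1.27 to 1.42, adjusted p = 2.33e-06). On day 3 one library lay among the controls and the change was not called (1.08-fold, adjusted p = 0.0578). The range of mean levels across the 6 genes was 2.06-fold in control, 1.76-fold on day 1 and 1.89-fold on day 3.

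Of the 11 non-ATPase genes of the cap, 10 were called higher on day 1 and 1 lower. Under quantile normalization 8 were higher, without Psmd1 (log2 change 0.09, adjusted p = 0.0558) and Psmd4 (0.06, adjusted p = 0.114). Psmd14, the deubiquitinase that removes the ubiquitin chain, had 37.5, 37.9 and 36.6 FPKM in control, 45.4, 46.1 and 43.9 FPKM on day 1 and 38.1, 35.2 and 37.9 FPKM on day 3. All day 1 libraries were higher than the others, at 1.25-fold over control (95% interval 1.19 to 1.3, adjusted p = 6.79e-06). Psmd8, a lid subunit, had 69.0, 72.7 and 74.6 FPKM in control, 89.1, 86.9 and 89.6 FPKM on day 1 and 73.0, 74.3 and 76.0 FPKM on day 3. That was 1.26-fold over control on day 1 (1.21 to 1.33, adjusted p = 4.75e-06), with no overlap. Psmd11, a lid subunit, had 44.9, 48.3 and 48.7 FPKM in control, 54.9, 55.5 and 53.2 FPKM on day 1 and 52.2, 49.6 and 50.1 FPKM on day 3. Its 3 groups did not overlap and stood in the order control, day 3, day 1, with 1.19-fold on day 1 (1.14 to 1.24, adjusted p = 2.88e-05). Copies named A730017L22Rik and Gm14048 share 52.7% of its transcript.

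Psmd3, also a lid subunit, was the one core or cap gene that fell. It had 63.4, 69.7 and 69.4 FPKM in control, 57.3, 56.6 and 57.5 FPKM on day 1 and 62.7, 63.2 and 64.1 FPKM on day 3. The day 1 libraries were the lowest, at 0.873-fold of control (95% interval 0.831 to 0.917, adjusted p = 0.00032). No near-identical copy of Psmd3 was found, and the adjusted p of the fall was 1.36e-05 to 0.00197 over the alternative fits.

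The activators took different directions. Psme4 encodes PA200, a single large protein that caps the core without ATP, and it had the largest change of all 44 genes. It had 20.2, 22.1 and 20.6 FPKM in control, 30.5, 30.7 and 28.6 FPKM on day 1, and 23.4, 22.0 and 22.7 FPKM on day 3. The day 1 libraries stood far above the rest, 1.47-fold over control (95% interval 1.39 to 1.55, adjusted p = 3.65e-07). Psme1, the alpha subunit of PA28, had 38.8, 42.6 and 44.0 FPKM in control, 36.6, 37.9 and 36.9 FPKM on day 1 and 40.3, 41.9 and 39.0 FPKM on day 3. It was lower on day 1 without overlap (0.916-fold of control, 0.858 to 0.978, adjusted p = 0.0235), but the call was lost without control replicate 2, control replicate 3 or day 1 replicate 1 (adjusted p = 0.0665, 0.0908 and 0.0721). Psme2, its partner in the PA28 ring, was not called (fold 1.04, 0.984 to 1.11, adjusted p = 0.185), and Psme3, the nuclear PA28 gamma, was called 1.08-fold higher (1.03 to 1.14, adjusted p = 0.0113). That call was lost without rescaling (log2 change 0.07, adjusted p = 0.0985) and under quantile normalization (0.07, adjusted p = 0.0849). The range of mean levels over these 4 genes was 1.99-fold in control, 1.24-fold on day 1 and 1.78-fold on day 3.

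Psmf1, which encodes PI31, had 11.8, 12.5 and 12.6 FPKM in control, 10.7, 11.8 and 10.9 FPKM on day 1 and 12.3, 11.9 and 12.5 FPKM on day 3. The control and day 1 groups overlapped, and the fold of 0.934 (95% interval 0.88 to 0.991, adjusted p = 0.0451) passed narrowly and was lost in 10 of the alternatives (adjusted p up to 0.167), among them those without control replicate 2 or 3, without day 1 replicate 1 or 3 and without any 1 of the day 3 libraries, which share the estimate of the spread. Without control replicate 3, or without day 1 replicate 1, 2 of the 44 genes were called lower on day 1 in place of 4.

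Most assembly chaperones were not called. Of the 7, Psmd10 rose, Psmg3 fell, and Psmd5, Psmd9, Psmg1, Psmg2 and Psmg4 were not called, with folds from 1.01 to 1.08. Psmd10 (gankyrin), which helps to assemble the base of the cap, had 9.60, 9.85 and 10.7 FPKM in control, 12.6, 11.7 and 10.7 FPKM on day 1 and 10.8, 9.71 and 10.9 FPKM on day 3. In FPKM the lowest day 1 library overlapped the highest control. After rescaling, day 1 stood at 0.36, 0.25 and 0.15 (log2) over the control mean, above the highest control at 0.08. The fold was 1.19 (95% interval 1.09 to 1.3, adjusted p = 0.00377). Psmg3, a chaperone of the alpha ring, had 10.6, 10.5 and 11.9 FPKM in control, 9.03, 8.41 and 9.57 FPKM on day 1 and 8.49, 9.18 and 9.43 FPKM on day 3. All 6 treated libraries were below all controls, at 0.845-fold on day 1 (0.761 to 0.937, adjusted p = 0.00904), on 186 to 350 reads per library, with 27% of the transcript shared with Gm26938. Of the 31 core and cap genes 26 rose and 1 fell on day 1 (median log2 change 0.20), and of the 12 activator, inhibitor and chaperone genes 3 rose and 3 fell (median 0.04). The higher calls are 83.9% of the first group and 25% of the second, beside 32.4% of all tested genes. These shares hold for the main scaling. Under quantile normalization Psma6, Psmb3, Psmc4, Psmc5, Psmd1 and Psmd4 of the first group lost the higher call, as did Psme3 of the second. Psmb4, Psmb5 and Psmb6 were called lower there. Most chaperones also had fewer reads and wider intervals than the core and cap genes, so the shares are not on equal terms. The difference between these role groups was not tested. Psmc3ip, the gene that is no proteasome component, was not called (0.851-fold, 0.733 to 0.988, adjusted p = 0.0573).

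**Figure D4:**
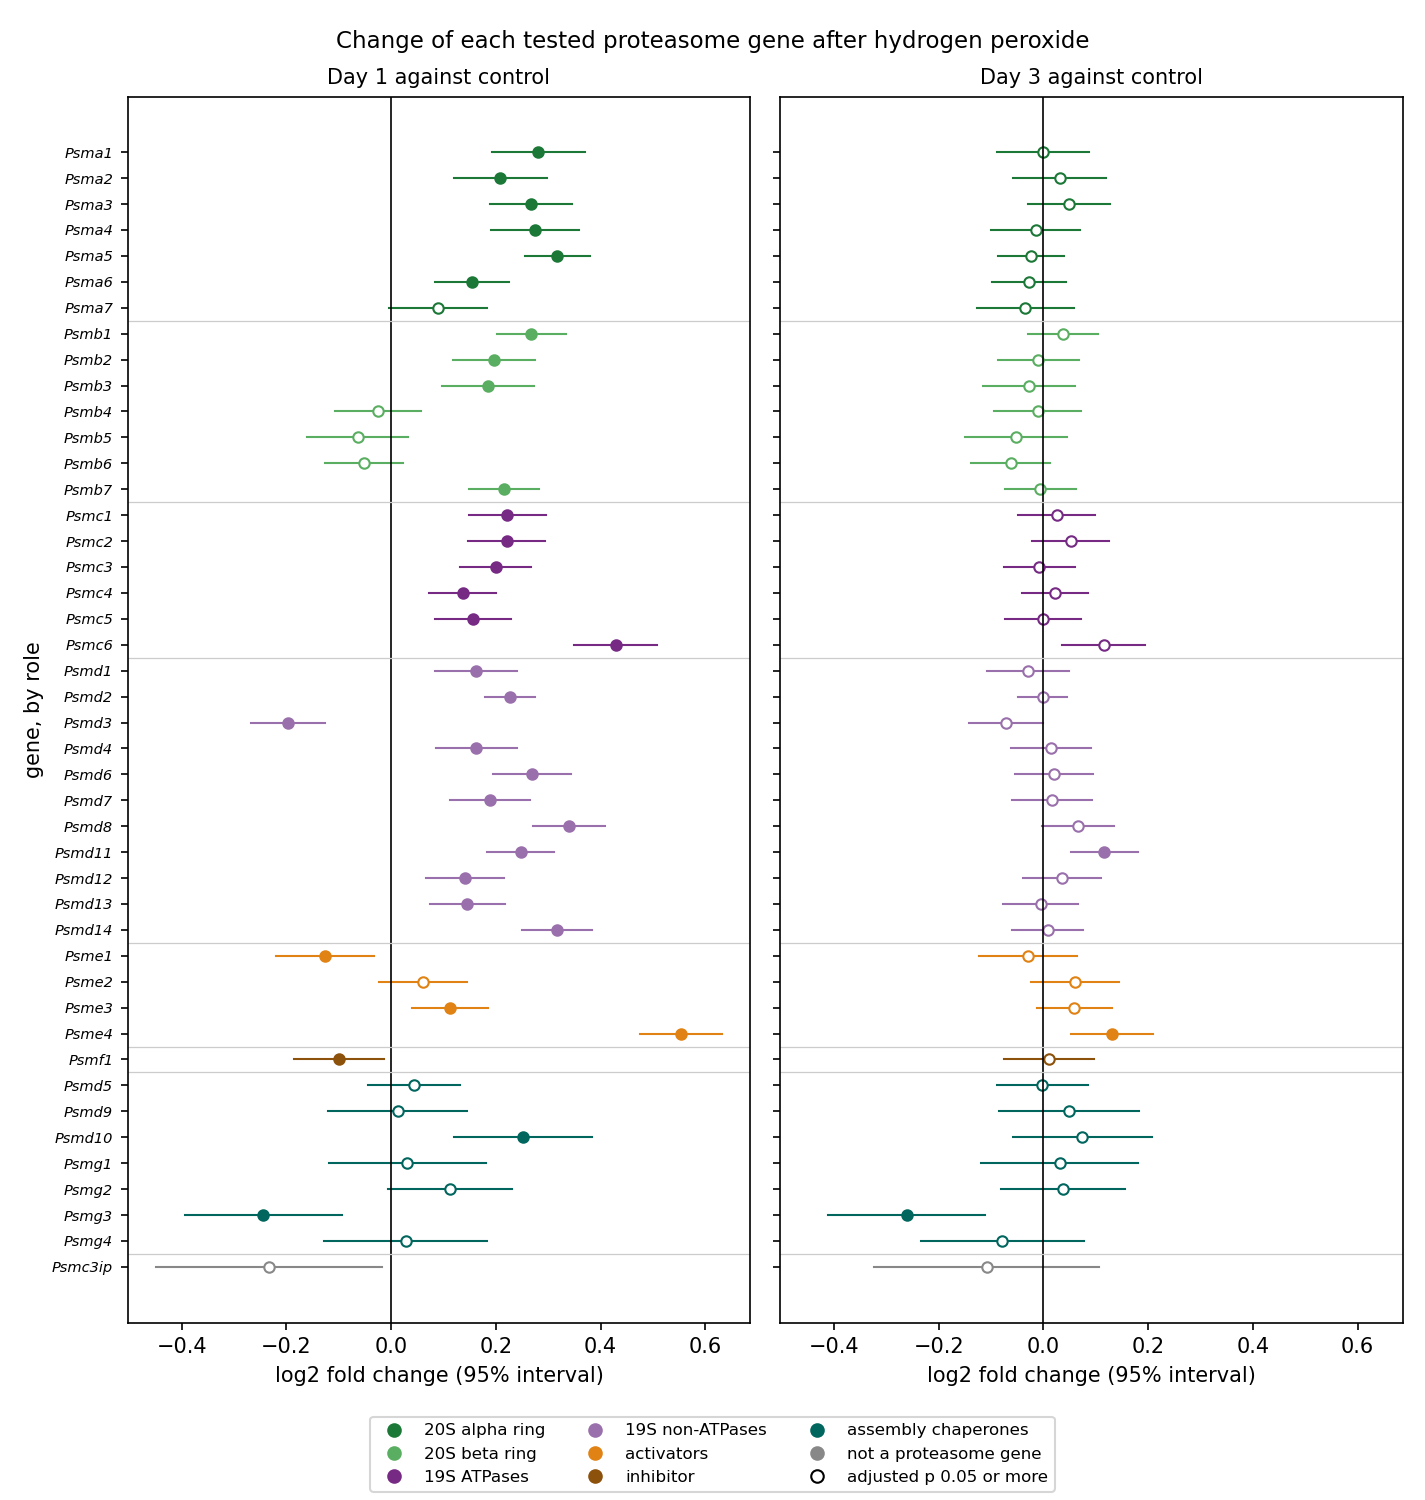
Log2 fold change of each tested proteasome gene with its 95% interval, for day 1 against control (left) and day 3 against control (right), ordered and coloured by role (open points: adjusted p of 0.05 or more). On the left 29 genes are called above 0 and 4 below, on the right 2 above and 1 below.

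On day 3 the proteasome genes were near their control levels. Of the 44, 2 were called higher (Psmd11 and Psme4) and 1 lower (Psmg3), where 14.0% of all tested genes were called, 7.68% higher and 6.30% lower. In FPKM before rescaling, all day 3 libraries were above all controls in 1 gene (Psmd11) and below in 1 (Psmg3), as were 12.5% and 17.8% of all tested genes. Their median log2 change was 0.00, beside 0.01 over all genes. Psmd11 was 1.08-fold of control (95% interval 1.04 to 1.13, adjusted p = 0.0231), and Psme4 1.09-fold (1.04 to 1.16, adjusted p = 0.0342). In FPKM a day 3 library of Psme4 lay just inside the control range. After rescaling its day 3 values (0.16, 0.11 and 0.12, log2 over the control mean) lay above the highest control (0.06). Psmg3 was the one gene lower on both days, 0.834-fold of control on day 3 (0.752 to 0.926, adjusted p = 0.0276). None of these 3 calls held throughout. Without control replicate 1 the adjusted p-values were 0.0768 for Psmd11, 0.108 for Psme4 and 0.0591 for Psmg3, and without day 3 replicate 1 they were 0.0882, 0.121 and 0.107. Without control replicate 3 Psme4 and Psmg3 were not called (0.109 and 0.0986), and Psme4 was also lost without day 1 replicate 2 or day 3 replicate 3 (0.05003 and 0.0809). Without rescaling, neither Psmd11 nor Psme4 was called (0 higher and 1 lower), and under quantile normalization Psmd11 and Psmg3 were (1 higher and 1 lower). Of all 12611 tested genes 661 were higher and 861 lower without rescaling, and 896 higher and 877 lower under quantile normalization.

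Most of the genes were lower on day 3 than on day 1. The 2 groups were harvested at different times after the wash, and the only untreated group has no stated harvest time. Recovery from H2O2 and time in culture therefore cannot be told apart. Of the 44 genes, 29 were lower on day 3 than on day 1 and 2 were higher (Psmd3 and Psmf1), where 56.0% of all tested genes were called, 26.6% higher and 29.4% lower. All day 3 libraries were below all day 1 libraries in 28 of the 44 and above in 3, as were 28.9% and 33.0% of all tested genes. With quantile normalization 22 were lower and 4 higher, and without rescaling 26 were lower and 3 higher. Of all 12611 tested genes 3555 were lower and 3364 higher with quantile normalization, and 3187 lower and 3693 higher without rescaling. Under the main scaling the median log2 difference of the 44 genes was −0.16, beside −0.01 over all genes. This comparison shares its day 1 libraries with the first one, so the counts of the 2 comparisons are not independent. Psme4 was 0.746-fold of its day 1 level (95% interval 0.707 to 0.788, adjusted p = 3.9e-06), Psma5 0.789-fold (0.756 to 0.824, adjusted p = 3.43e-06), Psmc6 0.804-fold (0.761 to 0.85, adjusted p = 3.25e-05) and Psmd14 0.808-fold (0.771 to 0.846, adjusted p = 1.17e-05). Psmd3 was 1.09-fold of its day 1 level (1.04 to 1.14, adjusted p = 0.00679). Psmd10 (0.884-fold, adjusted p = 0.0265) lost its call without day 1 replicate 1 or 2 or day 3 replicate 2 (adjusted p = 0.0986, 0.0536 and 0.104). It also lost the call without rescaling (adjusted p = 0.0715). Psmf1 (1.08-fold, adjusted p = 0.0318) lost it without day 1 replicate 1 or 3 or day 3 replicate 1 or 3 (adjusted p = 0.13, 0.0803, 0.0631 and 0.0973). The 27 core and cap genes among the 29 include all 7 of the alpha ring and all 6 ATPases. Under quantile normalization Psma2, Psma7, Psmc4 and Psmc5 lost the call (adjusted p = 0.0701, 0.108, 0.355 and 0.062), and Psma7 lost it without rescaling too (0.0741). Psmd12, Psmd4 and Psmd7 also lost it under quantile normalization (0.136, 0.16 and 0.0633), and Psmd12 without rescaling too (0.0913).

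Genes around the proteasome were called in both directions, at shares to be read against the 62.1% of all tested genes called on day 1 (32.4% higher). Of the 13 tested genes of the NRF1 pathway, 5 rose and 2 fell on day 1 (53.8% called, 38.5% higher, median log2 change 0.00). Nfe2l1 itself, at 87.0 ± 0.374 FPKM in control and 84.7 ± 0.18 FPKM on day 1 (SD, n = 3), was not called (log2 change 0.00 after rescaling, adjusted p = 0.911). Before rescaling its day 1 libraries (84.5 to 84.9 FPKM) lay below all controls (86.8 to 87.5 FPKM), as in 37.3% of all tested genes. Nfe2l2, which encodes the related oxidant-responsive factor NRF2, rose from 59.7 ± 2.33 to 78.3 ± 3.74 FPKM (1.35-fold, adjusted p = 2.04e-06) and was still higher on day 3 (1.2-fold, adjusted p = 0.00115). Mafk, a small partner of both factors, and Keap1, which targets NRF2 for degradation, fell (log2 changes −0.48 and −0.33), and Fbxw7, a ubiquitin ligase subunit, rose (0.33). Vcp, the ATPase that extracts ubiquitinated proteins, rose from 153 ± 1.92 to 183 ± 5.64 FPKM (1.22-fold, adjusted p = 5.34e-06).

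Among 13 tested partners of the proteasome without the Psm name, 6 rose and 4 fell on day 1 (76.9% called, 46.2% higher, median 0.17). The largest changes were Usp14, a deubiquitinase of the cap (11.8 ± 0.349 to 16.1 ± 0.557 FPKM, log2 change 0.48), Ube3c, a ubiquitin ligase bound to the cap (0.47), Ubxn11 (−0.42) and Ecpas, a proteasome-binding scaffold (0.30). Pomp, which matures the core, rose from 78.6 ± 3.03 to 85.7 ± 2.62 FPKM (SD, n = 3), and Adrm1, a ubiquitin receptor of the cap, fell from 45.2 ± 1.92 to 39.7 ± 1.5 FPKM. Of 6 ubiquitin and activating-enzyme genes, Uba6, Rps27a and Uba1 rose (0.59, 0.31 and 0.25) and Ubb, a polyubiquitin gene, fell (−0.23), 66.7% called in all. Of 8 tested shuttle and extraction factors, Faf1, Rad23b and Ubqln1 rose and the other 5 were not called (37.5% called). Of 6 genes of aggregate handling 3 rose on day 1 (50% called), led by the co-chaperone gene Bag3 (0.37), which was also called higher on day 3 (1.11-fold, adjusted p = 0.00656). Counts and medians of these lists are descriptions, and no list was tested as a whole.

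**Figure D5:**
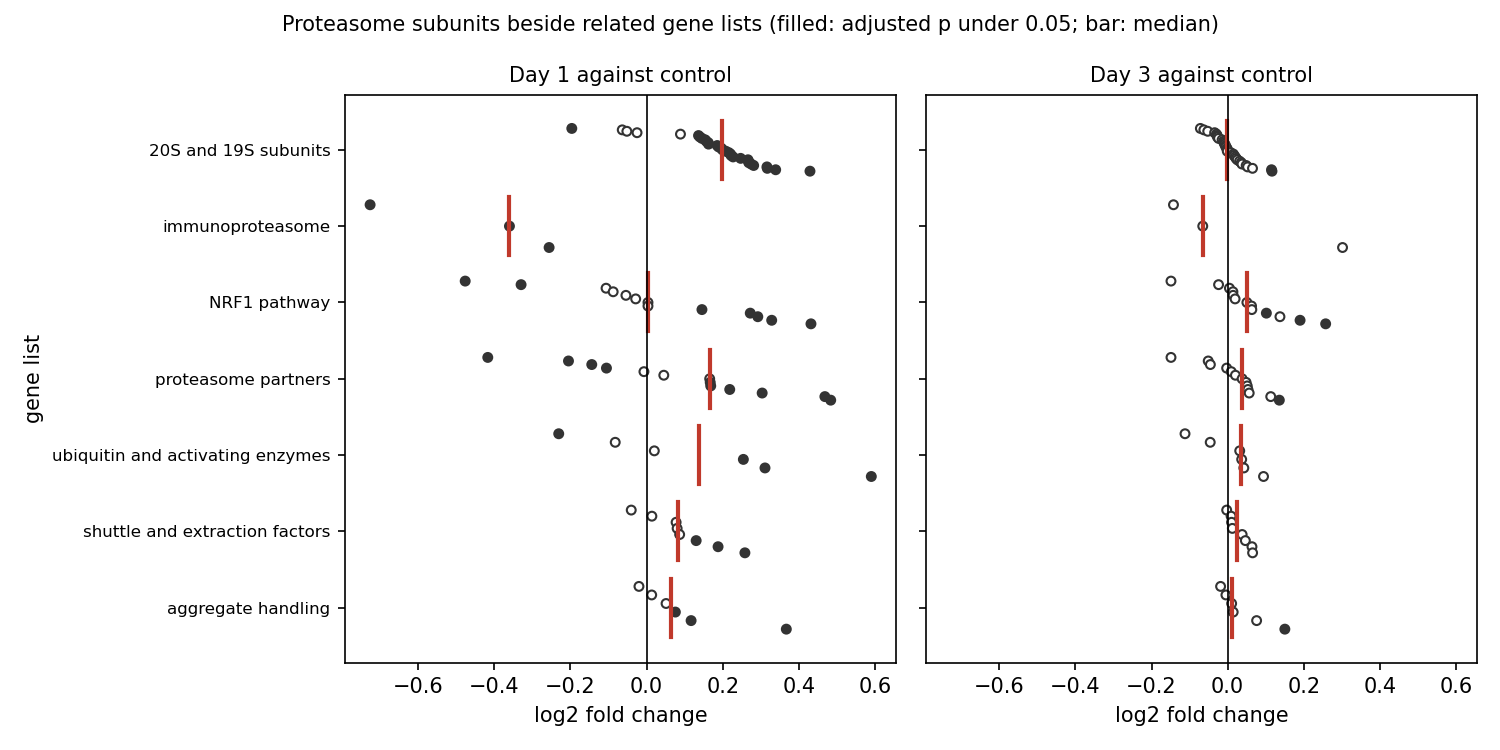
Log2 fold change (horizontal axis) of each tested gene of the 31 core and cap genes and of the 6 related lists, for day 1 and day 3 against control (filled points: adjusted p under 0.05, bar: median of the list). On day 1 the core and cap genes have a median of 0.20, the immunoproteasome genes −0.36 and the NRF1 pathway 0.00.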

How the data were processed

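Polyadenylated RNA was sequenced in 9 libraries of mouse astrocytes. The authors deposited 1 table of FPKM per gene symbol and library. The submitters' processing notes name the builds GRCm38 and mm10 and the tools STAR 2.7.3a, cutadapt 2.6, FastQC 0.12.1 and DESeq2. Not given in the sources used here were the counting program, the annotation, and the treatment of strand and of reads that match several genes. All columns were matched to libraries by name.

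Every gene above 0 (20350) gave whole reads to within 0.01 read when its FPKM was multiplied by a whole length and library total, so depth was known. 100% of these genes came out whole. The length was searched for gene by gene, so for genes above 0 in few libraries a fitting length is easily found. For such genes the fit is no check of length or read number. FPKM were rescaled by median-of-ratios factors (0.971 to 1.02), genes averaging 1 FPKM or more kept, and log2(FPKM + 0.1) fitted with limma 3.58.1 (trend) in R 4.3.3 on all 9 libraries, with group as the only term. limma-voom on the recovered reads was an alternative and called 29 proteasome genes higher and 4 lower on day 1. Replicates differed by more than sampling noise (chi-square per degree of freedom 1.75 to 4.76). The fit was tested on simulated data.

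Genes given with every library are the catalytic subunits, the called gene with the largest rise and fall of each role on day 1, the 6 largest called changes of each comparison, and called genes moving against the majority where 5 or fewer. Of each related list the 4 largest changes are named at most. One gene of the list of shuttle and extraction factors is not reported here and was left out of its counts. Psma7, Psme2, Psme3, Nfe2l1, Vcp, Pomp, Adrm1 and the ratios were added after their values were seen. The members, lists and tests were chosen with earlier results of these data known. Shared sequence was found with BLAST 2.17.0 on GENCODE transcripts (at least 100 bases at 97% identity). Promoter sequences and positions are RefSeq, GRCm38.p6. Figures were drawn with matplotlib 3.10.9.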

Additional observations from a re-analysis of the deposited data

Results flagged for a closer look

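For 13 of the 17 genes given library by library, the change from control on day 1 and that on day 3 differed, by limma's test of day 3 against day 1 (adjusted p under 0.05). Some of the 17 were named for that comparison, in which 56.0% of all tested genes were called, so the 13 are a description. In log2 units, day 3 minus day 1 was −0.28 for Psma1, −0.29 for Psma4 and −0.34 for Psma5 of the alpha ring, and −0.23 for Psmb1 and −0.22 for Psmb7 of the beta ring. It was −0.31 for the ATPase gene Psmc6, −0.31 for Psmd14, −0.27 for Psmd8 and −0.13 for Psmd11 of the cap, −0.18 for the chaperone gene Psmd10 and −0.42 for Psme4. In the opposite direction it was 0.12 for Psmd3 and 0.11 for Psmf1.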

How the results depend on the processing

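Of 558 recomputed changes of called genes given library by library, 516 stayed past the threshold in the same direction, 42 lost the call and 0 reversed. Most of these genes were named for large changes, so the 516 do not speak for all called genes. The 7 genes that lost the higher call on day 1 under quantile normalization are not among them. The day 1 count of 29 higher genes ran from 29 to 30 and that of lower genes from 2 to 4 when 1 library was left out. The same removal gave 0 to 3 higher and 0 to 1 lower genes on day 3 against control, and 1 to 3 higher and 26 to 29 lower genes on day 3 against day 1. Calling only at 1.2-fold or more left 10 higher and 0 lower on day 1, 0 and 0 on day 3 against control, and 0 higher and 7 lower on day 3 against day 1. The shares of all tested genes at 1.2-fold are not given here, so these counts have no background beside them. Quantile normalization gave 22 higher and 7 lower on day 1, 1 higher and 1 lower on day 3 against control, and 4 higher and 22 lower on day 3 against day 1. On day 3 against control, no filter gave 1 higher and 0 lower, no rescaling 0 higher, and a fit on only the 6 libraries compared 0 higher.

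Chosen after seeing the data, the fit without control replicate 1 and day 3 replicate 2, the libraries with the highest Rn45s share, gave 1 higher and 0 lower on day 3 against control, and 29 higher and 4 lower on day 1. Counting only the 30 tested genes with no shared sequence, also chosen afterwards, gave 19 higher and 3 lower on day 1. The 19 are 63.3% of the 30, beside 65.9% of the 44 and 32.4% of all tested genes. On day 3 against control 1 of the 30 was higher and 0 lower (3.33% called, beside 14.0% of all tested genes). On day 3 against day 1, 2 of the 30 were higher and 19 lower (70% called, beside 56.0% of all tested genes).

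Replicate numbers did not pair the libraries: deviations of same-numbered libraries correlated at −0.0791 to 0.111. A replicate block gave 30 higher and 4 lower on day 1, 3 and 1 on day 3 against control, and 2 and 29 on day 3 against day 1. Without a filter 20350 genes were tested in place of 12611. On day 3 against control 799 of them were called higher and 733 lower (7.53%), in place of 968 and 794 (14.0%). On day 3 against day 1 more were called, 3669 higher and 3904 lower in place of 3358 and 3710, but a smaller share (37.2% in place of 56.0%) because more were tested. The cause of the calls lost by genes named above was not tested. Psmg3 rests on 186 to 350 reads per library, and whether that depth bears on its lost calls was not tested either.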
